A study of Mus musculus with 2 samples.

Results

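The chaperone and heat shock genes examined here are the 82 protein-coding genes, of 21951 in GENCODE vM21 on mouse GRCm38, whose symbols begin with Hspa, Hspb, Hspd, Hspe, Hsph or Hsp90, or with Dnaja, Dnajb, Dnajc or Cct followed by a number. CUT&RUN, in which an antibody directs a nuclease to cut out the DNA bound by its target, was carried out on mouse embryonic stem cells of the SYAT line, with a GFP antibody in 1 library and a SRCAP antibody in 1 other. SYAT cells are CGR8 cells in which both Srcap alleles carry YPet, a yellow relative of GFP, and an auxin-inducible degron, and which express the plant receptor OsTir1. They are 1 engineered line, kept in auxinole to limit basal loss of SRCAP (200 nM in the labels, but with µM as the unit in the methods), and whether either library had a further treatment is not given in the labels. The deposited data are 1 peak list per library, with 28718 peaks for GFP and 28167 for SRCAP, and no read counts, so the depth is unknown.

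Each gene was scored by the peaks whose midpoint lay between 1000 bp before and 500 bp after the start site (TSS) of any transcript of the gene, here called promoter peaks. Because each antibody had 1 library, there is no spread between replicates and no significance test, and 95% Wilson intervals cover counting error over genes only. Peak scores are whole numbers from the authors' lists, with a minimum of 13 in both and medians of 47 in both. They are placed by percentile within their own list, and values for GFP are given before those for SRCAP.

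SRCAP is the ATPase of a complex that replaces H2A with the histone variant H2A.Z in nucleosomes next to promoters. The HSP70 proteins (Hspa) are ATP-driven folding machines that work with J-domain partners (Dnaja, Dnajb, Dnajc), HSP90 matures kinases and receptors, the Cct subunits form the cytosolic chaperonin TRiC, Hspd1 and Hspe1 form the mitochondrial chaperonin, and small heat shock proteins (Hspb) hold unfolded clients. Heat-inducible members are switched on by heat shock factors, which bind heat shock elements (HSEs) made of alternating inverted GAA units, while chaperones of the endoplasmic reticulum (ER) respond to unfolded protein through the ER stress element.

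The promoters below carry these elements in different positions relative to the peaks, and the sequence was read from the GRCm38 assembly. In each of the first 3, capitals mark HSEs of 2 units (GAANNTTC or TTCNNGAA). The first is the promoter of the small heat shock gene Hspb1, of which 150 of 150 bases lay in a GFP peak and 138 in a SRCAP peak. The others belong to the inducible HSP70 pair Hspa1a and Hspa1b, and are identical at 149 of 150 bases. All 150 bases lay in a GFP peak for Hspa1a and none in a peak of either list for Hspa1b.
Hspb1, chr5:135887769-135887918, plus strand: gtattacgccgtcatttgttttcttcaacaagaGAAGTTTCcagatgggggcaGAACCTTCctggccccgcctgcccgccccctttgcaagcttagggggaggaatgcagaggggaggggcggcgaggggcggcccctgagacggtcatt
Hspa1a, chr17:34972157-34972306, minus strand: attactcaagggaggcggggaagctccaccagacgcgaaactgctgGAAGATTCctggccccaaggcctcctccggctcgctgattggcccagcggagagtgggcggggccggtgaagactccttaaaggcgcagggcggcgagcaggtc
Hspa1b, chr17:34959239-34959388, minus strand: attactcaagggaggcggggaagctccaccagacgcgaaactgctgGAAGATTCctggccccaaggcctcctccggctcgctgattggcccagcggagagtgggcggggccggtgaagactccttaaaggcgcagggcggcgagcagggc

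The next stretches of at most 30 bases show the HSEs of 5 further members, to show elements that lie inside a peak, close to one or far from any. Hsph1, Hsp90aa1, Hspd1 and Dnajb6 have elements of 3 or more units, in which a further inverted unit follows after 2 bases, and Dnajb1 has an element of 2 units just downstream of its TSS. The Hspd1 element lies in the promoter it shares with Hspe1, whose TSS is 108 bp away on the other strand.
Hsph1, chr5:149636280-149636308, minus strand: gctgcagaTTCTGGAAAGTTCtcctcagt
Hsp90aa1, chr12:110696379-110696407, minus strand: gagggttcTTCCGGAAGGTTCcggaggct
Hspd1, chr1:55088053-55088082, minus strand: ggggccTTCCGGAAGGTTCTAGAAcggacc
Dnajb6, chr5:29735844-29735872, plus strand: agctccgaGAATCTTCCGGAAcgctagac
Dnajb1, chr8:83608210-83608239, plus strand: cgggaggggcgGAAGGTTCtggagggctgg

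The last 3 promoters belong to the ER chaperones Hsp90b1 (GRP94), Dnajc3 (P58IPK) and Hspa5 (BiP). In Hsp90b1 and Dnajc3 capitals mark the exact ER stress element, a CCAAT box followed after 9 bases by CCACG, on either strand. Hspa5 has no exact match, and capitals mark its CCAAT boxes.
Hsp90b1, chr10:86705510-86705659, minus strand: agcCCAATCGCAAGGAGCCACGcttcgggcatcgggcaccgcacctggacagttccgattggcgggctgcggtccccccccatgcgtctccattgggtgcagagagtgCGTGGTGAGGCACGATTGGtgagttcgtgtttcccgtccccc
Dnajc3, chr14:118937826-118937975, plus strand: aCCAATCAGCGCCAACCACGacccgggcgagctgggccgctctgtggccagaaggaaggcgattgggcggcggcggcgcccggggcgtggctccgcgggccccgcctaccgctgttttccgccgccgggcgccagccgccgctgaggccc
Hspa5, chr2:34771820-34771969, plus strand: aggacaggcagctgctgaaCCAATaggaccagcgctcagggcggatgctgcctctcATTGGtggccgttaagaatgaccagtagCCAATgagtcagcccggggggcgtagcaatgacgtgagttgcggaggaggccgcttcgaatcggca

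Of the 82 members, 47 had a GFP promoter peak (57.3%, 95% interval 46.5 to 67.5) against 35% of all protein-coding genes. A SRCAP promoter peak was present at 48 (58.5%, 47.7 to 68.6) against 35.6%, and 38 had one in both lists (46.3%, 36.0 to 57.1) against 27%. In 37 of those 38 the peaks of both lists overlapped, the exception being Dnajc22. A further 9 members had a promoter peak with GFP only and 10 with SRCAP only, so that 57 had one in either list and 25 had none.

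Members also differed from all genes in promoter base composition. Promoters rich in CpG, here with an observed/expected CpG ratio of at least 0.6 and GC of at least 55% over 500 bp at a coding transcript's TSS, were found at 64 members (78.0%) and at 52.1% of all protein-coding genes. Among CpG-rich members 60.9% (48.7 to 71.9) had a GFP peak, 64.1% (51.8 to 74.7) a SRCAP peak and 50.0% (38.1 to 61.9) both. The corresponding shares of all 11435 CpG-rich coding genes were 51.8%, 52.8% and 40.5%, each inside the members' interval. Of the 18 other members 8 had a GFP peak (44.4%, 24.6 to 66.3), 7 a SRCAP peak (38.9%, 20.3 to 61.4) and 6 both (33.3%, 16.3 to 56.3), against 16.7%, 17% and 12.3% of coding genes outside the CpG-rich class. In that smaller class the background lay below the members' interval for each list and for both. Hspb3, Hspb6, Dnajc4, Dnajc5b, Dnajc12 and Dnajc22 were the 6 with peaks in both lists.

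**Figure D1:**
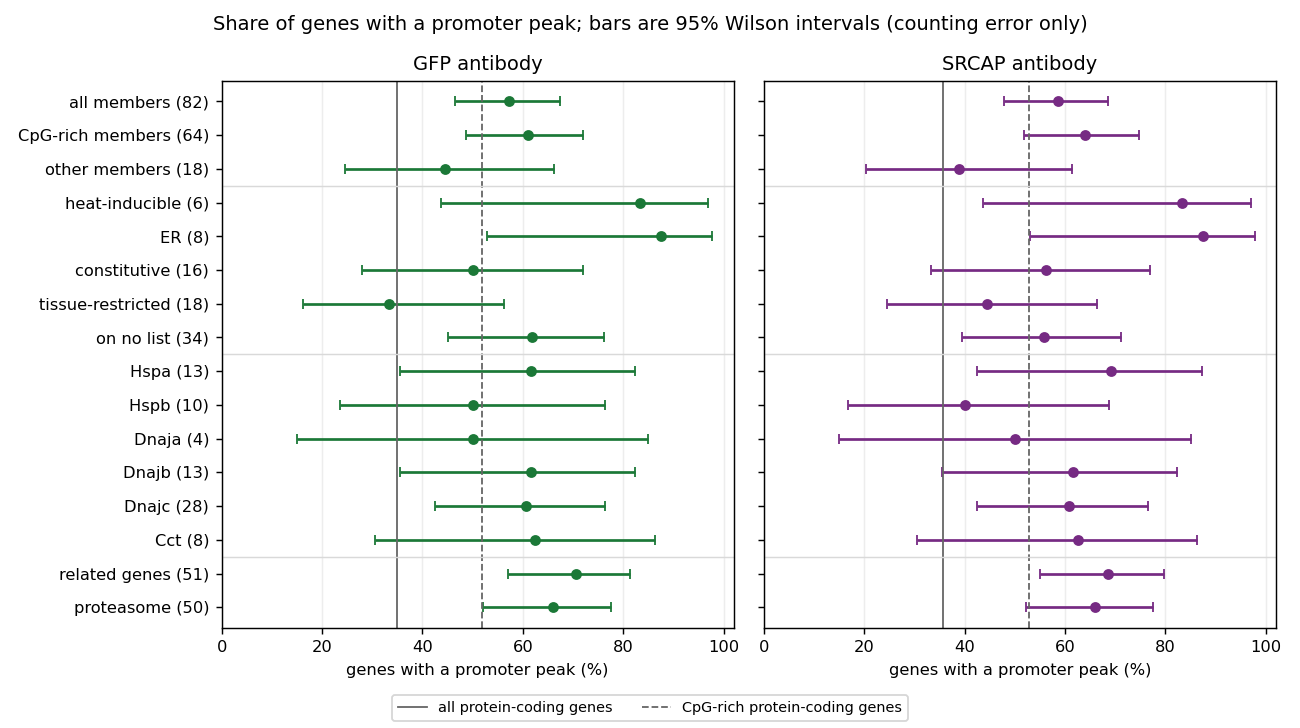
Percentage of genes with a promoter peak for the GFP antibody (left) and the SRCAP antibody (right), with the number of genes in parentheses. Points are shares and bars 95% Wilson intervals (counting error only), the solid line marks all protein-coding genes and the dashed line CpG-rich ones; of the lists by function, from heat-inducible to on no list, ER is the highest in both panels, at 87.5%. The lists by function were drawn up with earlier results of these data known.

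The heat-inducible list holds 6 genes, the cytosolic HSP70s Hspa1a and Hspa1b, the HSP70 exchange factor Hsph1 (HSP110), the inducible HSP90 Hsp90aa1, the small heat shock gene Hspb1 and the J-domain gene Dnajb1. GFP promoter peaks were found at 5 of 6, SRCAP promoter peaks at 5 of 6, and 4 of 6 had both, so each of the 6 had a peak in at least 1 list. The constitutive list, 16 genes that cells keep on without stress, had 8 (50.0%, 28.0 to 72.0) with GFP, 9 (56.2%, 33.2 to 76.9) with SRCAP and 7 (43.8%, 23.1 to 66.8) with both. The interval for the heat-inducible list, 43.6 to 97% in each library, overlapped that of the constitutive list. With 6 and 16 genes, overlapping intervals cannot show whether the shares of inducible and constitutive genes are alike or differ. All 22 genes on these 2 lists have CpG-rich promoters, and the CpG-rich background of 51.8% and 52.8% lies inside both intervals in each list. The heat-inducible list was drawn up with earlier results of these data known, and does not hold every member with an HSE. In the motif window given below, HSEs of 2 units were also at 5 of 16 constitutive genes and 6 of 34 on no list. Among these, Hspd1, Hspe1, Dnaja4, Hspa4l and Hspb8 had no promoter peak, while Dnaja1, Dnajb6 and, for SRCAP only, Hspa9 had peaks. The shares of the heat-inducible list thus describe its 6 genes, not every member with an HSE.

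Hsph1 had the highest GFP score of the heat-inducible genes, 133 (93.3rd percentile), with a SRCAP peak of 97 (85.2nd percentile). The Dnajb1 peaks scored 82 and 126 (80.5th and 91.8th percentiles). They lay with their midpoints 48 and 27 bp from a TSS of Tecr, the neighbouring gene on the other strand, and nearer to it than to Dnajb1. The count of divergent coding partners given below takes starts of coding transcripts only and does not include Tecr. Dnajb1 also had a second SRCAP peak of score 29 at 121 bp downstream. Hspb1 was unequal between the antibodies, with a GFP score of 125 (92.1st percentile) and a SRCAP score of 24 (15.1st percentile). At Hsp90aa1 no GFP peak fell in the window and the nearest was 2353 bp away, while SRCAP gave peaks of 65 and 28 at 140 and 318 bp upstream of different TSSs.

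Hspa1a and Hspa1b, whose proteins are almost the same, also had unlike peaks. Hspa1a had a GFP peak of score 52 from 498 bp upstream to 21 bp downstream of its TSS, and the nearest SRCAP peak was 8660 bp away. The same GFP peak lies in the window of the testis gene Hspa1l, which starts 547 bp away on the other strand. Hspa1b had low-scoring peaks in both lists, 25 and 23 (11.1st and 11.4th percentiles), centred 520 and 546 bp upstream and ending 254 and 292 bp short of its HSE. Only 44.1% of the 75-base words from 250 bp upstream to 50 bp downstream occur once in the genome in either copy, against 100% at the median member, and the part of this in the missing peaks was not tested. Of the GFP peak at Hspa1a, 71.5% of the words occur once, and of both Hspa1b peaks 100%.

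**Figure D2:**
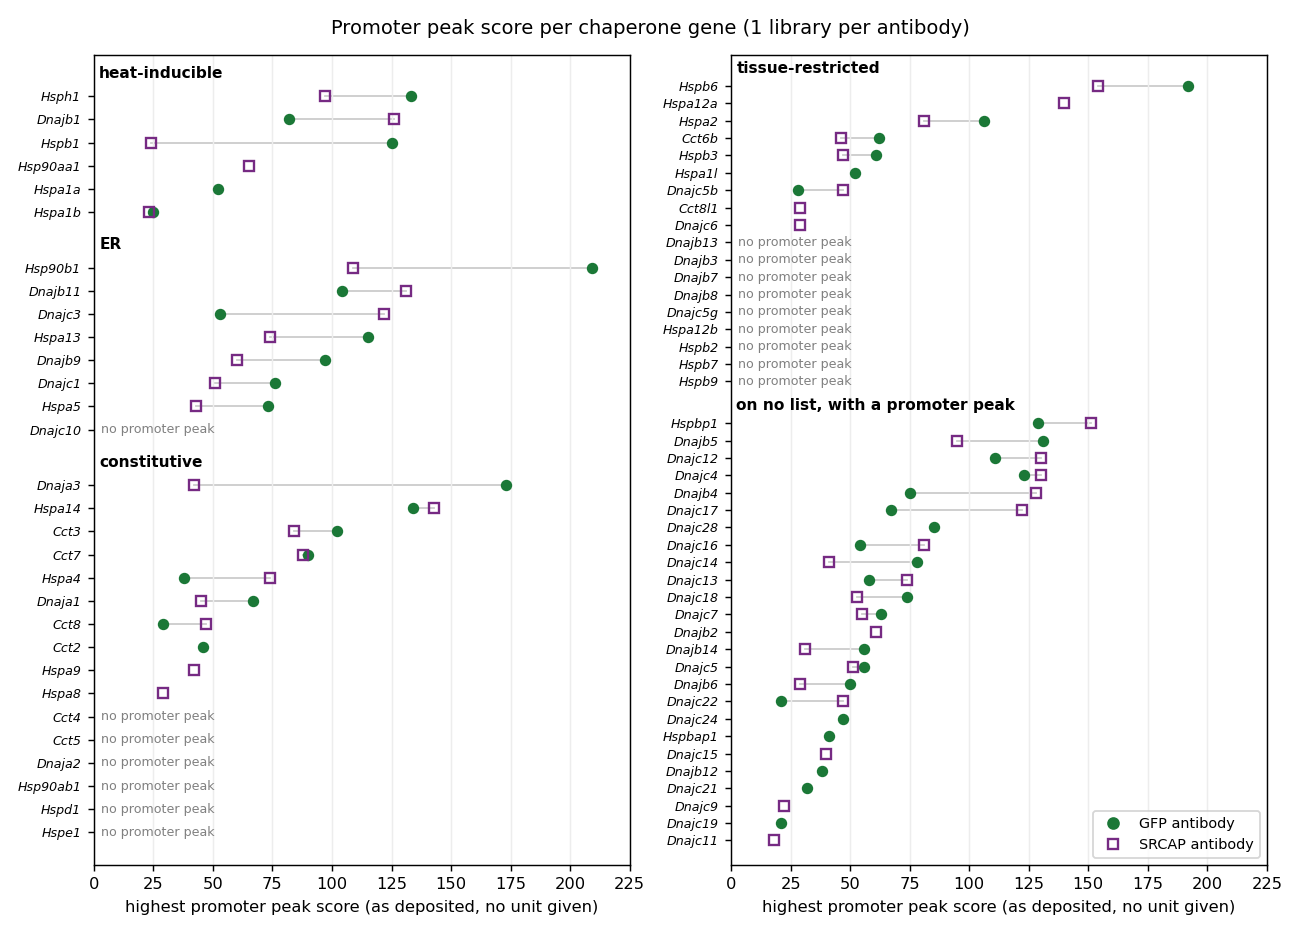
Highest promoter peak score per gene in the GFP list (filled circles) and the SRCAP list (open squares), by gene list, with 1 library per antibody; a grey line joins the values of 1 gene. Hsp90b1 (209 and 109) and Hspb6 (192 and 154) have the highest GFP scores, and grey text marks listed genes with no promoter peak.

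Of the 8 genes on the ER list, 7 had promoter peaks in both lists (87.5%, 52.9 to 97.8), and in all 7 the peaks overlapped. This list was drawn up with earlier results of these data known and may leave out other ER members, so the share describes its 8 genes only. Peaks in both lists were at 27% of all protein-coding genes and 40.5% of CpG-rich ones, the class of all 8. Hsp90b1, the ER HSP90, had the highest GFP score of any member, 209 (97.8th percentile), with 109 for SRCAP. These wide peaks of 847 and 936 bp also cover the start of Ttc41, 302 bp away on the other strand, and their midpoints were nearer to Ttc41.

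Hspa5, the ER HSP70 and main sensor partner of the unfolded protein response, had scores of 73 and 43 with midpoints 68 and 37 bp upstream. Its cofactors were also marked: Dnajb11 had 104 and 131 from peaks shared with Tbccd1, Dnajb9 had 97 and 60, Dnajc1 had 76 and 51, and Dnajc3 had 53 and 122. Hspa13, a further ER HSP70, had 115 and 74. The exception was Dnajc10, an ER disulfide reductase, whose nearest peaks were 57812 and 100763 bp away although its promoter is CpG-rich. The lowest ER promoter peak scores, 53 and 43, lay above the lowest of the constitutive list, 29 in each.

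Among the cytosolic and mitochondrial housekeeping chaperones, some genes had promoter peaks and others had none. Cct3 (102 and 84) and Cct7 (90 and 88) had overlapping peaks in both lists, each lying in a promoter shared with a divergent gene, Tsacc and Pradc1. Cct8 had weaker peaks, 29 and 47, and Cct2 had GFP only, 46. Cct4 and Cct5 had none, with the nearest peaks 5940 and 5843 bp from Cct4 and 50583 and 50484 bp from Cct5. Genes for subunits of 1 particle thus ranged from no promoter peak to peaks in both lists. Over all 8 Cct members, 5 had a GFP peak and 5 a SRCAP peak (62.5%, 30.6 to 86.3, for each). The 51.8% and 52.8% of CpG-rich coding genes lay inside that interval, as did the 35% and 35.6% of all protein-coding genes. Cct6a is annotated as a processed transcript in this release and is no member, and it had promoter peaks of 52 and 67.

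Genes of the HSP70 and HSP90 systems also ranged from no promoter peak to peaks in both lists. Hspa4, an exchange factor, had peaks of 38 and 74 and the ribosome-linked Hspa14 had 134 and 143, the latter in a promoter shared with Cdnf. Hspa8, the constitutive cytosolic HSP70 (HSC70), had SRCAP only, 29, with the midpoint 41 bp downstream of a TSS and the nearest GFP peak 2826 bp away. Hspa9, the mitochondrial HSP70, had SRCAP only, 42, and its nearest GFP peak, 1017 bp upstream, lay just outside the window. Hsp90ab1, the constitutive HSP90, had none, with the nearest peaks 2764 and 1617 bp downstream. Dnaja1 had 67 and 45, the mitochondrial Dnaja3 had 173 and 42, and Dnaja2 had none within 27098 bp.

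Hspd1 and Hspe1, the subunits of the mitochondrial chaperonin, had no promoter peak in either list. The nearest peaks were 20292 and 20330 bp from Hspd1, the promoter is CpG-rich with an observed/expected ratio of 1.00 and GC of 74.4%, and at least 95% of the 75-base words in this promoter occur once in the genome. Of all 7 mitochondrial members 2 had a GFP peak, 4 a SRCAP peak and 1, Dnaja3, had both (28.6%, 57.1% and 14.3%). The shares of all protein-coding genes were 35%, 35.6% and 27%, and those of CpG-rich ones 51.8%, 52.8% and 40.5%. All of these lie inside the wide intervals of the listed genes.

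Among 18 tissue-restricted members, mainly genes of testis, muscle or nerve, 6 had a GFP peak (33.3%, 16.3 to 56.3), 8 a SRCAP peak (44.4%, 24.6 to 66.3), 5 both (27.8%, 12.5 to 50.9) and 9 none. These shares are near the 35%, 35.6% and 27% of all protein-coding genes, which lie inside the intervals. The highest scores were at the muscle gene Hspb6, 192 and 154. Both peaks span the start of Proser3, on the other strand and 976 bp upstream of the representative Hspb6 TSS. The GFP midpoint was nearest to an alternative Hspb6 TSS (92 bp) and the SRCAP midpoint to Proser3 (59 bp). Hspa12a had SRCAP only, 140, at an alternative start beside Eno4, where the peak ends at -82248 bp relative to the representative TSS. Hspa2, a testis HSP70, had 106 and 81 at its own start. Cct6b (62 and 46, shared with Zfp830), Hspb3 (61 and 47) and Dnajc5b (28 and 47) had both. Dnajc6 and Cct8l1 had SRCAP only, 29 each. Hspa12b, Hspb2, Hspb7, Hspb9, Dnajb3, Dnajb7, Dnajb8, Dnajb13 and Dnajc5g had none, and Hspb9 came closest, with peaks 737 and 823 bp downstream.

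The 34 members on none of these lists had 21 with a GFP peak (61.8%, 45.0 to 76.1), 19 with SRCAP (55.9%, 39.5 to 71.1) and 15 with both (44.1%, 28.9 to 60.5). All protein-coding genes had 35%, 35.6% and 27%. CpG-rich ones had 51.8%, 52.8% and 40.5%, inside these intervals. The highest summed scores were those of Hspbp1, an HSP70 exchange factor that shares only its prefix with the small heat shock genes (129 and 151), Dnajc4 (123 and 130), Dnajc12 (111 and 130), Dnajb5 (131 and 95), Dnajb4 (75 and 128), Dnajc17 (67 and 122, shared with Zfyve19), Dnajc14 (78 and 41, 36 and 21) and Dnajb6 (50, 46 and 22 for GFP and 29 for SRCAP). Dnajb14, a further J-domain gene, had 56 and 31. With GFP only, Dnajc28 (85), Dnajc24 (47), Hspbap1 (41), Dnajb12 (38) and Dnajc21 (32) scored highest. SRCAP alone marked Dnajb2 (61), Dnajc15 (40), Dnajc9 (22) and Dnajc11 (18).

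Without a promoter peak were Dnaja4, Hspa4l, Hspb8 and Hspb11. Of 12 J-domain genes outside the naming rule, 6 had both, with scores from 21 to 74 for GFP and from 47 to 81 for SRCAP, 1 had GFP only and 5 had none, which are Dnajc2, Dnajc8, Dnajc25, Dnajc27 and Dnajc30 (named after their values were seen).

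By symbol, Hspa genes had peaks at 8 (GFP) and 9 (SRCAP) of 13, Hspb at 5 and 4 of 10, Hsp90 at 1 and 2 of 3 and Hsph1 in both. The 10 Hspb symbols include Hspbp1 (both lists) and Hspbap1 (GFP only), which share only the prefix with the small heat shock genes. Dnaja genes had 2 and 2 of 4, Dnajb 8 and 8 of 13, Dnajc 17 and 17 of 28 and Cct 5 and 5 of 8. The J-domain and Cct families had the same count in both lists, and all intervals of families of 4 genes or more overlapped each other. The CpG-rich background of 51.8% (GFP) and 52.8% (SRCAP) lay inside each of these intervals. Over all protein-coding genes the shares were 35% and 35.6%. Among 51 related genes that are no members, 36 had a GFP peak (70.6%, 57 to 81.3), 35 a SRCAP peak (68.6%, 55 to 79.7) and 32 both (62.7%, 49.0 to 74.7), against 35%, 35.6% and 27% of all protein-coding genes and 51.8%, 52.8% and 40.5% of CpG-rich ones.

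Of 10 HSP90 cofactors 9 had peaks in both lists, among them Ahsa1 (161 and 82) and Ahsa2 (111 and 76) and Unc45a (25 and 117). Stip1, which links HSP70 to HSP90, had 478 and 206, the iron-sulfur J-domain gene Hscb had 373 and 266, Tcp1, the CCT1 subunit of TRiC, had 235 and 334, and the mitochondrial exchange factor Grpel1 had 62 and 295. These exceed the highest member scores of 209 and 154 in at least 1 list. By list, HSP70 cofactors had 7 and 6 of 10 (also Bag1, 121 and 101, and Stub1, 108 and 51), prefoldin with CCT1 had 4 and 4 of 7 (also Vbp1, GFP only, 127, and Pfdn6, 95 and 34), and mitochondrial cofactors and proteases had 6 and 6 of 7 (also Lonp1, 211 and 102). Related ER genes had 8 and 7 of 11, led by Calr (137 and 108), Manf (115 and 156) and Sdf2l1 (107 and 80), and of the alpha-crystallins Cryaa had GFP only (28) and Cryab none. Of the 4 heat shock factors, Hsf2 had both (80 and 151), Hsf1, the main heat-responsive factor, had SRCAP only (57), Hsf4 had SRCAP only (65), and Hsf5 had none. For scale, 33 of 50 proteasome subunits had a promoter peak in each list (66.0%, 52.2 to 77.6).

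The 50 distinct GFP and 52 distinct SRCAP promoter peaks of members had median scores of 67 and 52, against 53 and 54 for the promoter peaks of all coding genes. Of these, 74.0% of GFP peaks overlapped a SRCAP peak (68.8% over all coding genes) and 73.1% of SRCAP peaks overlapped a GFP peak (68.5%). Scores were higher where the lists overlapped, with medians of 76 and 74, than where they did not, with medians of 46 and 34.5. Hspa12a (SRCAP, 140) and Dnajc28 (GFP, 85) were the strongest peaks without an overlap. Over the 38 overlapping pairs, in 37 genes, Spearman's rho of the scores was 0.49, a description over promoters of the same 2 libraries.

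**Figure D3:**
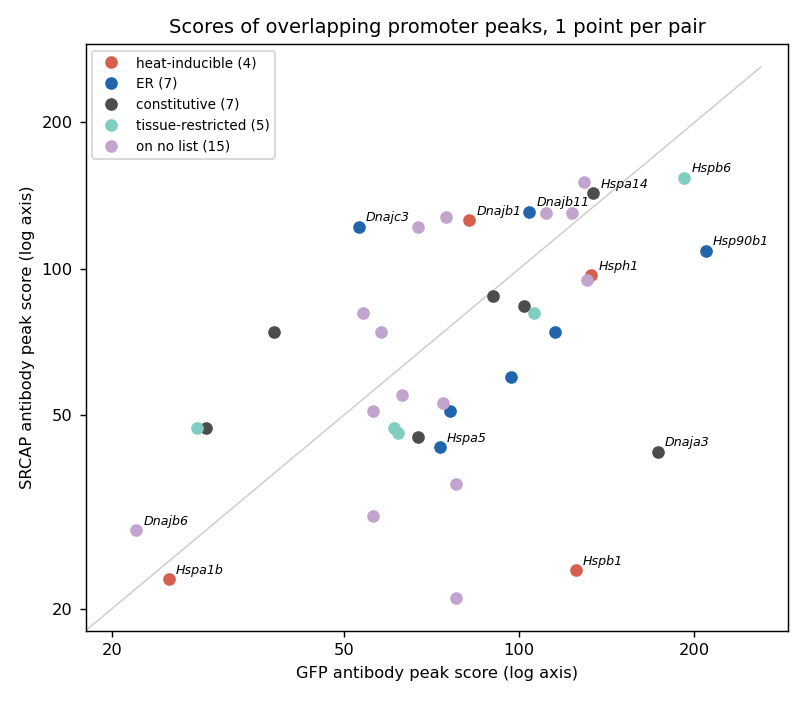
Scores of the 38 overlapping promoter peak pairs (log axes), with the GFP score on the x axis, the SRCAP score on the y axis and colours for the gene lists; the grey line marks equal scores. Dnaja3 (173 and 42) and Hspb1 (125 and 24) lie farthest on the GFP side, and Dnajc3 (53 and 122) on the SRCAP side.

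The median midpoint was 148 bp upstream for GFP and 83 bp upstream for SRCAP of the nearest TSS of the gene, near the 128 and 92 bp of all coding genes. Midpoints lay upstream for 68.6% (55 to 79.7) of GFP and 61.5% (48 to 73.5) of SRCAP member peaks, against 71.5% and 71.7% over all coding genes, and midpoints of overlapping pairs were a median of 60.5 bp apart. Divergent coding partners, within 1000 bp upstream on the other strand, were more common at members (21 of 82, 25.6%, 17.4 to 36.0) than at all coding genes (8.34%). Hspd1 and Hspe1 are partners of each other, as are Hspa1a and Hspa1l, so these shared promoters count for both genes. The share with a partner was not compared within CpG-rich genes. With such a partner 13 of 21 members had a GFP peak (61.9%, 40.9 to 79.2) and 11 a SRCAP peak (52.4%, 32.4 to 71.7), and without one 34 (55.7%, 43.3 to 67.5) and 37 (60.7%, 48.1 to 71.9) of 61, with overlapping intervals. Over all coding genes the shares were 63.6% and 65.0% with a partner, inside the members' intervals, and 32.4% and 33.0% without one, below them. In all, 41 members had a GFP promoter peak and 42 a SRCAP promoter peak nearer to their own TSS than to that of any other coding gene, and 32 had both.

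Several promoter peaks sat at alternative starts. When only 1 representative TSS per gene was used, 43 and 39 members had a peak. The Dnajb4 peaks began 16070 and 16063 bp downstream of that TSS, those of Dnajc12 ended at -3659 and -3660 bp relative to it, and Dnajb6 had GFP peaks at 3 starts. Outside the promoter windows of the gene itself, 31 GFP peaks lay inside 21 member genes and 27 SRCAP peaks inside 16. The strongest GFP peak of these, 276 in Dnajb6, overlapped a SRCAP peak of 98, and both exceed the Dnajb6 promoter peaks of at most 50 and 29. The strongest of these SRCAP peaks outside the promoter windows was 117, in Dnaja3.

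**Figure D4:**
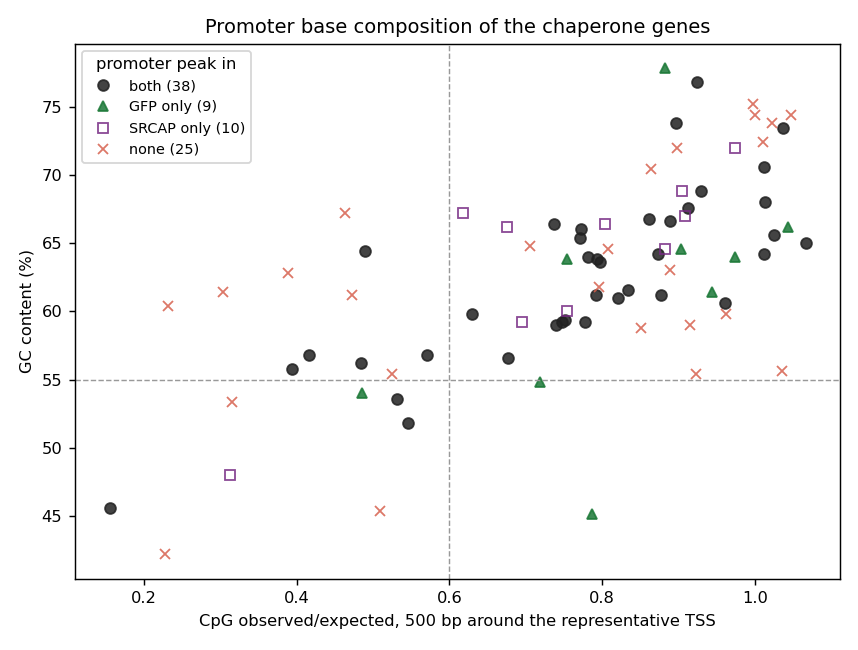
GC content (%) against the CpG observed/expected ratio in 500 bp around the representative TSS of each of the 82 members, with symbols for the lists holding a promoter peak. Dashed lines mark the limits of 0.6 and 55%, which were applied to any coding TSS; members with no peak (crosses) reach ratios as high as those with peaks in both lists (circles), with medians of 0.85 and 0.79.

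Motif letters were searched on both strands from 250 bp upstream to 50 bp downstream of the representative TSS. An HSE of 2 units was found at 24 members (29.3%, 20.5 to 39.9) against 13.9% of all coding genes, and at all 6 heat-inducible genes. An HSE of 3 units was found at 5 members, Hsph1, Hsp90aa1, Hspd1, Hspe1 and Dnajb6 (6.10%, 2.63 to 13.5), against 0.485%. Hspd1 and Hspe1 share the same bases of this element, which the HSE counts and intervals take as separate genes. The exact ER stress element was found at Hsp90b1 and Dnajc3, and at 0.114% of all coding genes. CCAAT boxes, searched as CCAAT and including those in ER stress elements, were at 36.6% of members and 38.2% of all coding genes.

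HSEs of 2 units, some of which lie within HSEs of 3 units, were at 9 of 38 members with peaks in both lists (23.7%, 13 to 39.2). They were at 10 of 25 members with none (40%, 23.4 to 59.3), where the element shared by Hspd1 and Hspe1 counts for both. Where a member had both a promoter peak and such an HSE, the HSE lay within a GFP peak at 4 of 10 members (40%, 16.8 to 68.7) and within a SRCAP peak at 3 of 13 (23.1%, 8.18 to 50.3). Over all coding genes the same shares were 50.1% and 49.4%, inside both intervals.

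At single genes the HSEs printed above lay at different distances from the peaks. In Hspb1 and Dnajb1 they were inside the peaks of both lists, and in Hspa1a inside the GFP peak. At Dnajb6 the element of 3 units was inside a GFP peak, the only such element of the 5 members within a peak of either list. At Hsp90aa1 the SRCAP peak stopped 23 bp upstream of the element. At Hsph1 both peaks stopped 155 bp upstream of it, at the same base. The ER stress elements were inside GFP peaks in Hsp90b1 (2 elements) and Dnajc3 (1), and of these the upstream Hsp90b1 element and that of Dnajc3 were also inside SRCAP peaks. Hspa5 and Dnajb11 had their 150 bases before the TSS wholly inside a GFP peak, and 126 and 150 of them inside a SRCAP peak.

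**Figure D5:**
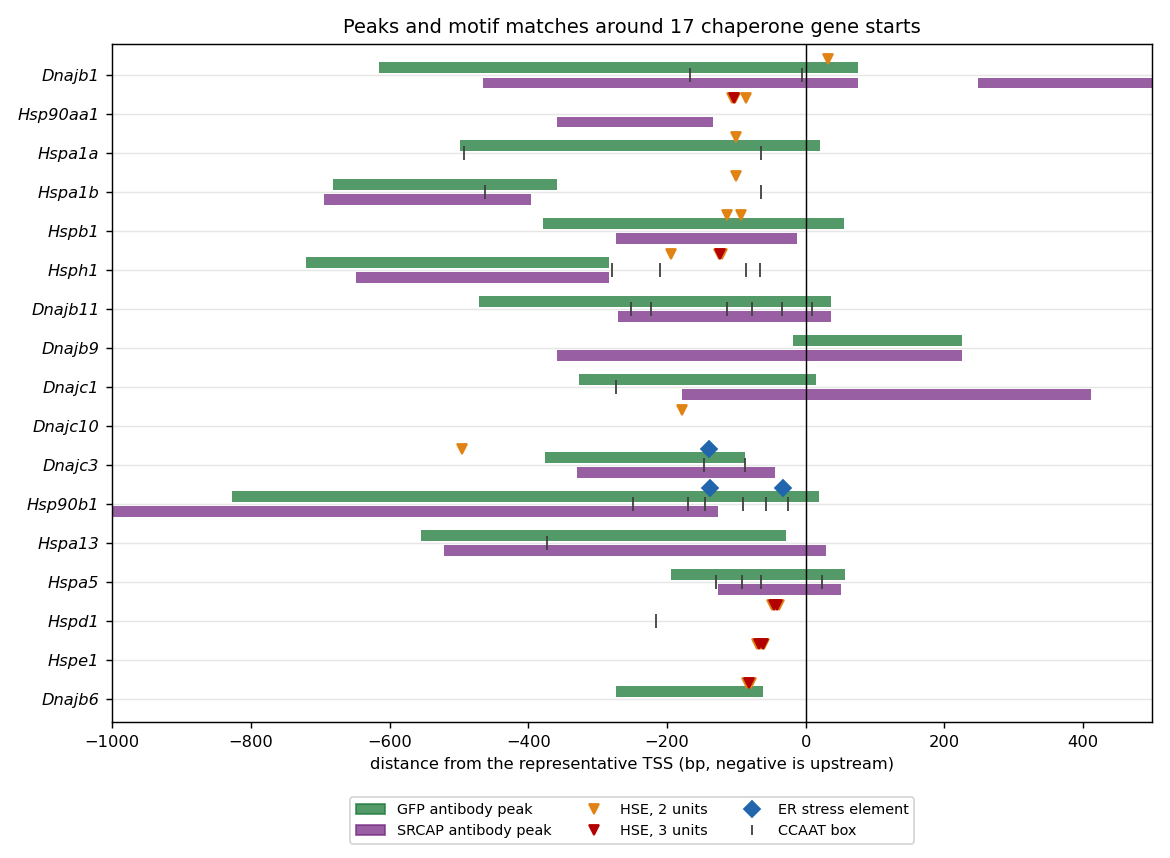
Peaks (bars) and motif matches (symbols) from 1000 bp upstream to 500 bp downstream of the representative TSS of the heat-inducible and ER genes, Hspd1, Hspe1 and Dnajb6, on each gene's strand. GFP bars are green and SRCAP bars purple, and bars running past the frame are cut at its edge; the red triangles of Hsph1, Hsp90aa1, Hspd1 and Hspe1 lie outside the bars, and the blue diamonds of Hsp90b1 and Dnajc3 lie within GFP bars.

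Some midpoints fell near the edges of the promoter window. Inside it, a second Hspa14 GFP peak (35) lay 496 bp downstream, the Dnajb6 SRCAP peak 956 bp upstream and a Dnajb6 GFP peak (50) 453 bp downstream. Outside it, a Hspa9 GFP peak (34) lay 1017 bp upstream, a second Dnajb12 GFP peak (56) 646 bp downstream and a Dnajc11 GFP peak (41) 1191 bp upstream. Peaks were dense on chromosome 8 (2555 and 2965), where only Dnajb1 and Dnaja2 lie, and 46 and 47 of the 80 other members had a promoter peak.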

How the data were processed

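Each library was grouped by the antibody in its title. Per the submitters' processing notes, STAR, Picard and MACS2 were used with the builds mm10 and dm6, without versions. The deposited files give, per peak, chromosome, start, end, name and a score, a whole number whose meaning was not stated. Names carry MACS2 and 1 library, so peaks were called per library. The study's reporting summary gives, in its part on ChIP-seq, which also lists the SRCAP antibody for CUT&RUN, MACS2 in paired mode with an input control and a q-value threshold, and its methods exclude blacklisted regions, without saying that either holds for these libraries. Control and threshold decide which promoters are listed. The study's methods describe CUT&RUN with the SRCAP antibody only, while a GFP antibody is named there for CUT&Tag, and the GFP library is taken as CUT&RUN from its labels (100000 cells, 0.1% formaldehyde, paired reads of 75 nt).

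Promoter windows used 101652 transcripts of coding genes in GENCODE vM21. The representative TSS was that of the coding transcript with the best APPRIS rank, lacking for 85 genes. Overlaps of 1 bp or more, found with numpy 2.4.6 and pandas 2.3.3 under Python 3.11.15, matched bedtools 2.31.1 (16138 and 16248 peaks). Sequence was read with pysam 0.24.0, intervals came from scipy 1.17.1 and plots from matplotlib 3.10.9. Assignment and counts of 75-base words were tested on simulated data.

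Members and gene lists were chosen with earlier results of these data known. The lists rest on textbook knowledge of the genes. All genes on the 4 lists or in families of at most 15 genes could be named, and of the rest the 8 with the highest summed scores, the 5 highest with peaks in 1 list for each antibody and, of the related lists, the 3 highest scores in each. Alternatives were score, window, TSS set, assignment rule, chromosome 8, overlap rule, CpG limit and motif window. A control antibody, expression and H2A.Z were not analysed here.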

Additional observations from a re-analysis of the deposited data

How the results depend on the processing

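Of 334 values recomputed under 12 alternatives, 315 stayed within the 95% interval of the reported value. A change of sign was sought only in the differences between members and coding genes, and none was found. The count includes small families with wide intervals, such as 6.15 to 79.2% for the 3 Hsp90 genes with GFP, for which staying inside says little. The excess of members over all coding genes kept its direction under each alternative run for it. Dropping peaks that score below their list's median lowered the shares of members to 45.1% (GFP), 39.0% (SRCAP) and 30.5% (both), against 22.2%, 23.5% and 16.0% of all coding genes. With it the constitutive list fell to 31.2% (SRCAP) and 18.8% (both), Hspa to 38.5% and 23.1%, and Dnaja to 0% in each. A window of 2500 bp either side of the TSS gave 100% of the heat-inducible list (GFP) and of Hsp90 genes (SRCAP), and 500 bp either side left 0% of Hsp90 genes with both. A representative TSS alone gave 47.6% of members with SRCAP, against 30.4% of coding genes, and moved the median midpoints to -229 and -178.5 bp. Asking for 50% overlap of both peaks lowered the overlapping peaks to 56.0% and 53.8%. From 500 bp upstream, CCAAT boxes were at 50.0% of members (55.4% of coding genes) and TATA boxes at 18.3% (24.9%), against 36.6% (38.2%) and 8.54% (13.3%) from 250 bp upstream. Each alternative admits fewer, more or other peaks, starts or bases, and why single values moved was not tested. No paired analysis was possible because there was a single library per antibody. With no read counts and no replicates, a missing peak is a gene not detected at an unknown depth.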
